A study of Mus musculus with 28 samples.

Results

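Integrin subunits and the adaptor proteins that tie them to actin were followed as 43 genes, 18 alpha subunits, 8 beta subunits and 17 adaptors, among the 35275 genes counted in mouse livers with and without focal adhesion kinase (FAK, gene Ptk2). The members were every row of both count tables whose gene name was on this list, and all 43 were found in both tables. An integrin is an alpha and beta pair in the cell membrane that binds matrix or a partner cell outside and, inside, recruits talins and kindlins, which switch it on, then vinculin, zyxin, alpha-actinins and filamin, which join it to actin. FAK sits at these adhesions and relays signals from them. In liver, hepatocytes are known for a small set of integrins, leukocytes carry the beta 2 family, platelets the Itga2b and Itgb3 pair, and bile duct cells the laminin receptors.

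RNA-seq was run on 28 libraries in 2 experiments, all from FVB mice with both FAK alleles floxed (FAKfl/fl). Mice not given DDC, here called unfed (no fasting is meant), were aged 6 to 8 weeks. They were FAKfl/fl Alb-Cre- (WT) or FAKfl/fl Alb-Cre+ (KO), and gave whole liver and isolated hepatocytes, 4 libraries for each genotype and material. The other experiment was whole liver from mice given a diet with 0.1% w/w DDC for 4 to 8 weeks, which injures bile ducts and scars the liver. Its Bred WT and Bred KO mice were FAKfl/fl Alb-Cre- and FAKfl/fl Alb-Cre+, and its Virus WT and Virus KO mice were FAKfl/fl mice injected with AAV8-TBG-Null and AAV8-TBG-Cre, 3 libraries for each. The age of the DDC mice is not given in the labels. Alb-Cre uses the albumin promoter and acts from fetal life in hepatocytes and cholangiocytes, whereas AAV8-TBG-Cre acts in hepatocytes of the injected animal, so in each whole liver the other cell types kept the floxed alleles. Hepatocytes were obtained by perfusion and a Percoll gradient. The labels do not state that each library is a separate mouse, so p-values measure the spread between these libraries.

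Library totals ran from 11162678 to 20428773 counts. Ptk2 was lower in every KO group, with 3.65 to 6.67 FPKM (fragments scaled to gene length and library size) in WT liver and 1.17 to 1.45 in KO liver, 5.68 to 6.46 and 0.907 to 1.29 in hepatocytes, 5.16 to 8.35 and 2.03 to 2.35 in Bred livers, and 5.52 to 6.59 and 2.43 to 3.06 in Virus livers. Hepatocyte markers such as Alb were high in all groups, and none of the 10 was at 0. The isolated hepatocytes still held RNA of other cells, with a summed level of 8 macrophage markers of 10.2 to 32.3 FPKM in WT hepatocytes against 76.2 to 97.8 in WT liver, and S100a8 at 0 in WT hepatocytes. Ly6g was at 0 in WT liver too. Bred WT replicate 1 lay apart from the other DDC libraries on the second principal component (score 65.5, the others -33.2 to 16). Tissue WT replicates 2 and 4 had relatively more counts in long genes than the 6 other whole livers (Spearman correlation of each gene's deviation with its length 0.3 and 0.27, against -0.51 to -0.33). The isolated hepatocyte libraries had correlations of 0.12 to 0.44.

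The beta subunits set the scale of the family. Itgb1, the partner of most alpha subunits, had 34, 55.7, 41.6 and 50.4 FPKM in the WT livers and 41, 46.4, 48.2 and 45.5 in the KO livers. In hepatocytes it had 48.2, 50.2, 54.2 and 55.4 FPKM in WT and 56.1, 54.3, 54 and 49.1 in KO. The groups overlapped in both materials, and the log2 fold change of KO over WT was 0.00 in liver (standard error 0.12, edgeR adjusted p = 0.997) and -0.04 in hepatocytes (standard error 0.12, adjusted p = 0.963). Itgb5, which pairs with Itgav to bind vitronectin, followed with 25.8 to 33.1 FPKM in WT liver and 24.2 to 32.9 in WT hepatocytes. Itgb1 and Itgb5 together left little room for the others, since Itgb1 made up 58.6 ± 3.94% and Itgb5 37.5 ± 3.55% (SD, n = 4) of the summed FPKM of the 8 beta subunits in WT liver. Itgb6, an epithelial receptor for latent TGF-beta, was at 0 in all 16 unfed libraries.

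The alpha subunits were much lower. Their 18 genes summed to 23.7 ± 6.17 FPKM in WT liver, against 77 ± 12.3 FPKM for the 8 beta subunits. The highest were Itga9, with 18.2 ± 2.27% of that sum, Itgav with 15.6 ± 3.04%, the collagen receptor Itga1 with 15.1 ± 0.658% and the fibronectin receptor Itga5 with 13.3 ± 1.71%. In WT hepatocytes Itga5 led, with 25.4 ± 2.81% of 27.7 ± 3.5 FPKM.

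Among adaptors, 1 member of each small family carried most of the level. Kindlin-2 (Fermt2) made up 97.5 ± 1.04% of kindlin FPKM in WT liver and 99.3 ± 0.418% in WT hepatocytes, beside kindlin-3 (Fermt3), the kindlin of blood cells, at 2.3 ± 0.997% and 0.467 ± 0.37%. Alpha-parvin (Parva), which binds actin within the complex of ILK, PINCH and parvin, made up 93.1 ± 2.22% and 98 ± 1.11% of parvins. PINCH-2 (Lims2) made up 82.8 ± 1.72% and 82.6 ± 3.13% of the PINCH pair, talin-1 (Tln1) 87.5 ± 2.74% and 94.4 ± 1.32% of the talins, and alpha-actinin-4 (Actn4) 85 ± 1.9% and 85 ± 1.94% of the alpha-actinins. FPKM is per length, so these levels can be compared between genes, within limits. Reads over exons shared with another gene may be lost or shared. The libraries also differed in their relative counts of long genes, as given above, which division by length does not remove.

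**Figure D1:**
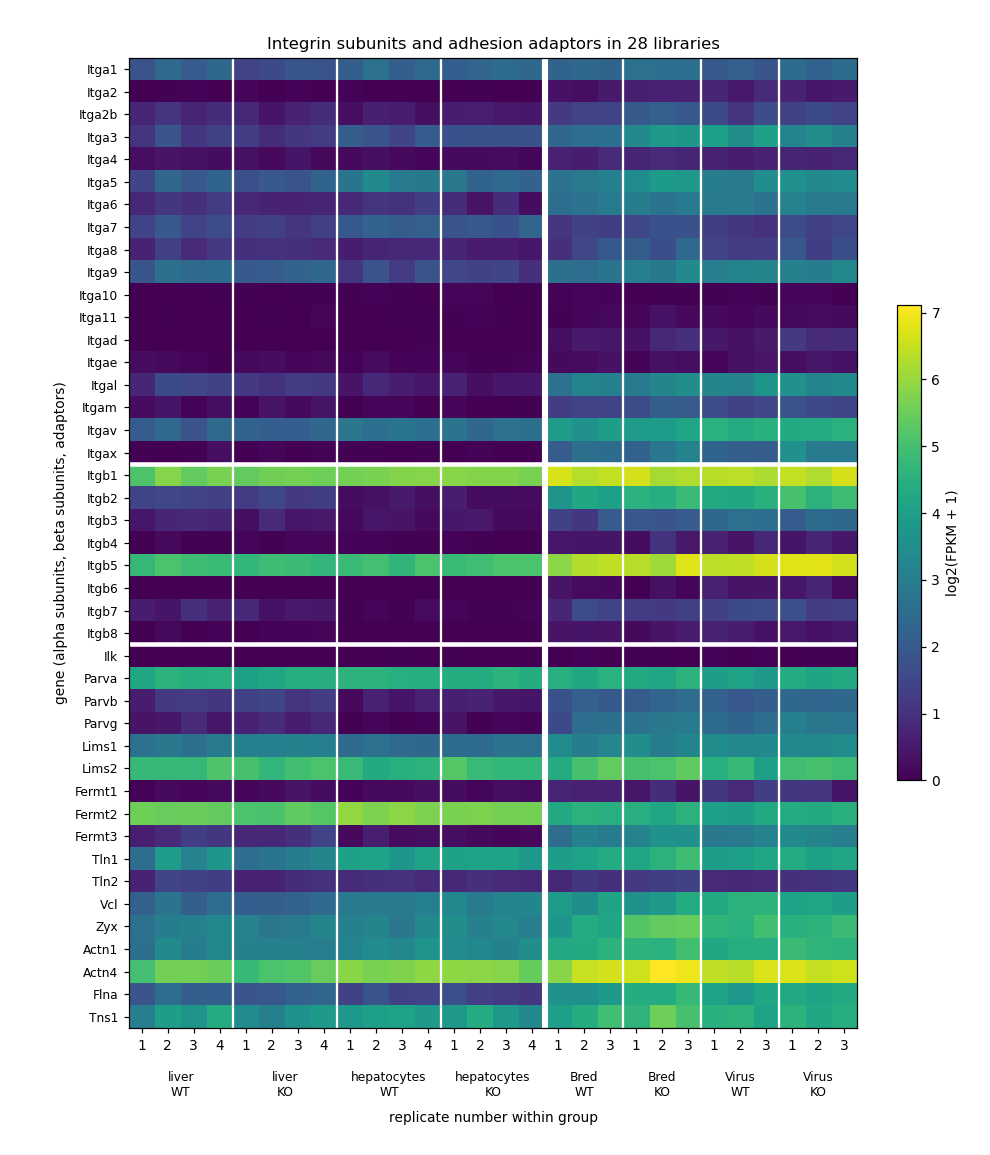
Heat map of log2(FPKM + 1) of the 43 members (rows, grouped as alpha subunits, beta subunits and adaptors) in the 28 libraries (columns, by group and replicate number), with the unfed libraries left of the thick line and the DDC libraries right of it. Itgb1, Itgb5 and Actn4 are bright throughout, Ilk is dark in every library, and Itgb6 is dark in all 16 unfed libraries.

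Ilk, the integrin-linked kinase that holds the PINCH and parvin complex together, could not be read from these tables. It had 0 or 1 count in each of the 16 unfed libraries and 0 to 2 counts in each of the 12 DDC libraries. Of its exon bases (chr7:105736592-105742925, mm10, plus strand), 89.7% lie under exons of genes on the opposite strand in GENCODE M21, Taf10 and Rrp8, and Taf10 had 582 to 1963 counts. The strand setting of the counting is not given in the sources used here, so these Ilk counts say nothing of its level, and its part in what follows was not tested. The same limit is smaller for other members. For Itgam 68.7% of exon bases are shared with Gm49368 on the same strand, for Itga10 33.5% with Gm42957, and for vinculin (Vcl) 25.5% with Ap3m1 on the opposite strand, while Itgb1, Itga2b, Itga3, Itga5 and Flna share none.

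Loss of FAK changed no member past the threshold in unfed mice. Of the 43 members, 33 passed the count filter in unfed libraries, and the 10 that did not (Itga2, Itga10, Itga11, Itgad, Itgae, Itgax, Itgb4, Itgb6, Itgb8 and Ilk) had at most 18 counts in any library. None of the 33 was called in whole liver at an edgeR quasi-likelihood adjusted p under 0.05, beside 0.008% of all 12507 genes tested. An unadjusted p under 0.05 was found for 6 of the 33 members and for 2017 of the 12507 genes. In isolated hepatocytes none was called either, beside 0.32% of all genes. There 3 members had an unadjusted p under 0.05, beside 1119 of all genes. DESeq2 also called 0 members in both.

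The members with the smallest p-values in unfed liver were Itga1, Tln2 and the adaptor PINCH-1 (Lims1), all with an adjusted p of 0.185. Itga1 and Tln2 were lower in KO (log2 fold change -0.65 and -0.82) and Lims1 was higher (0.37). Lims1 had 5.11 to 6.45 FPKM in WT livers and 7.33 to 7.7 in KO livers, without overlap. Fermt2 did not overlap either, with 41.6 to 45.8 FPKM in WT livers and 32.3 to 40.1 in KO livers (-0.30, edgeR adjusted p = 0.205). Itga1 had 2.56, 4.34, 3.12 and 4.25 FPKM in WT livers and 1.75, 2.01, 2.72 and 2.63 in KO livers. Tln1, the talin that activates integrins in most cells, had 4.79, 14, 7.95 and 12.4 FPKM in WT livers and 4.82, 5.8, 7.13 and 8.5 in KO livers. The WT range of Tln1 spans the KO range, and WT replicates 2 and 4, the libraries with more counts in long genes, held its highest values. Without tissue WT replicate 1 the fit called 3 members, Tln1 (log2 fold change -0.77, adjusted p = 0.025), Itga1 (-0.75, adjusted p = 0.033) and Tln2 (-1.04, adjusted p = 0.0153), together with 400 higher and 594 lower genes over the whole table.

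As a group the members leaned lower in KO liver, 24 of 33 with a median log2 fold change of -0.19, against -0.01 over all genes tested. Members are long, with a median length of 4379 bases against 3090 over all genes tested. Without tissue WT replicates 2 and 4 the members' median was -0.02, and with the trend of expression on gene length removed it was also -0.02. In hepatocytes 23 of 33 were lower, with a median of -0.16, and with the length trend removed the median was -0.07. The largest hepatocyte difference by p was Itga5, with 5.85, 9.37, 6.68 and 6.4 FPKM in WT and 6.16, 3.79, 4.42 and 3.68 in KO (log2 fold change -0.73, standard error 0.22, adjusted p = 0.253). In the pooled comparison of both materials 32 members were tested and 0 were called, beside 0.0253% of all genes. There 2 members (Itga6 and Tln2) had an unadjusted p under 0.05, beside 704 of all 11857 genes. The genotype effect in hepatocytes minus that in liver was called for 0 members and for 0% of all genes, and 0 members had an unadjusted p under 0.05, with 1002 of all genes. DESeq2 called 0 members in the pooled comparison too.

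The members that differed on DDC, whose DDC values follow, overlapped between genotypes in unfed mice. Itga3 had 1.12, 2.65, 1.2 and 1.65 FPKM in WT liver and 1.43, 0.902, 1.18 and 1.41 in KO liver, then 3.27, 2.66, 1.78 and 3.21 in WT hepatocytes and 2.47, 2.42, 2.39 and 2.41 in KO hepatocytes. For Zyx the values were 5.31, 7.09, 7.66 and 9 FPKM in WT liver and 7.84, 6, 6.74 and 8.36 in KO liver, then 7.61, 8.47, 6.04 and 9.42 in WT hepatocytes and 10.4, 7.49, 8.83 and 7.25 in KO hepatocytes. Flna, the actin crosslinker filamin A, had 2.69, 4.92, 3.47 and 3.34 FPKM in WT liver and 2.66, 2.82, 3.66 and 4.05 in KO liver, then 1.64, 2.59, 1.59 and 1.67 in WT hepatocytes and 2.36, 1.56, 1.36 and 1.18 in KO hepatocytes. In these 3 members the WT and KO ranges overlapped in both materials and none was called. Itga2b, the platelet subunit, had 0.704, 1.09, 0.681 and 0.886 FPKM in WT liver and 0.717, 0.315, 0.639 and 0.891 in KO liver, then 0.211, 0.555, 0.484 and 0.233 in WT hepatocytes and 0.477, 0.522, 0.388 and 0.348 in KO hepatocytes. Its partner Itgb3 had 0.341, 0.693, 0.72 and 0.663 FPKM in WT liver and 0.202, 0.789, 0.337 and 0.394 in KO liver, then 0.116, 0.339, 0.288 and 0.138 in WT hepatocytes and 0.382, 0.39, 0.135 and 0.103 in KO hepatocytes. Itga9 had 2.76, 5.21, 4.53 and 4.68 FPKM in WT liver and 3, 3.19, 3.84 and 4.28 in KO liver, then 1.15, 2.52, 1.41 and 2.51 in WT hepatocytes and 1.88, 1.59, 1.81 and 0.929 in KO hepatocytes. All 3 overlapped between genotypes in both materials and had their highest values in whole liver. Parva had 17.2, 22.5, 20.5 and 21.4 FPKM in WT liver and 15.6, 17, 20.6 and 20.7 in KO liver, then 23, 23.2, 21.6 and 20.7 in WT hepatocytes and 20.2, 20.1, 23 and 20.2 in KO hepatocytes. In KO mice Vcl had 3.36, 3.45, 3.67 and 4.64 FPKM in liver and 8.99, 6.78, 8.02 and 8.52 in hepatocytes, and Itgav had 3.79, 3.36, 3.35 and 4.22 in liver and 5.61, 4.29, 5.41 and 5.14 in hepatocytes. Itga2 was at most 0.0616 FPKM in any unfed library, with 6 of the 16 at 0.

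Isolated hepatocytes and whole liver differed in which members they held. In WT mice 18 of 33 members (54.5%) were called, 7 higher in hepatocytes and 11 lower, beside 25.4% of all genes (9.81% higher and 15.6% lower). In KO mice 20 of 33 (60.6%) were called, 9 higher and 11 lower, beside 44.1% of all genes (20.2% higher and 23.9% lower). The materials also differed in the length trend. With it removed, the all-gene calls in WT went from 1227 higher and 1949 lower to 1473 and 1055. In KO they went from 2527 and 2994 to 2767 and 1990. The members called were 17 to 21 in WT and 19 to 21 in KO over the refits other than those without a single library. In both genotypes Itga3, Itga5, Itga7, Itgav, Fermt2, Tln1 and Vcl were called higher in hepatocytes, and Itga8, Itga9, Itgal, Itgb2, Itgb7, Parvb, Parvg, Fermt3 and Flna lower.

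The 7 members higher in hepatocytes in both genotypes included 4 alpha subunits and the adaptors Fermt2, Tln1 and Vcl. In KO mice Itga1 (log2 fold change 0.83, edgeR adjusted p = 0.00293) and Actn4 (0.62, adjusted p = 0.00389) were called higher as well. Itga5 rose from 1.78, 4.11, 2.99 and 3.92 FPKM in WT liver to 5.85, 9.37, 6.68 and 6.4 in WT hepatocytes, with every hepatocyte library above every liver (log2 fold change 1.19, standard error 0.23, edgeR adjusted p = 0.00363). Vcl, which reinforces the talin to actin link under force, had 3.51, 5.69, 3.43 and 4.88 FPKM in WT liver and 6.52, 6.71, 6.42 and 7.36 in WT hepatocytes, again without overlap (0.67, standard error 0.15, adjusted p = 0.00678). Tln1 had 15.9, 16.4, 12.4 and 16.2 FPKM in WT hepatocytes (15.7, 16.4, 16.4 and 12.9 in KO) and overlapped the WT livers (0.70, standard error 0.23, adjusted p = 0.0367). In KO mice, whose livers all shared the lower length trend, the Tln1 change was 1.21 (standard error 0.23, adjusted p = 9.38e-04). Itgav, the vitronectin receptor subunit, had 3.17, 4.42, 2.54 and 4.47 FPKM in WT liver and 6.11, 5.1, 5.73 and 5.06 in WT hepatocytes, without overlap (0.64, standard error 0.15, adjusted p = 0.00873). In KO mice its change of 0.45 became 0.11 (adjusted p = 0.573) with the length trend removed. In KO mice Itga5 had 2.31, 2.95, 2.53 and 3.9 FPKM in liver, and its hepatocyte log2 fold change was 0.60 (adjusted p = 0.0402), with an adjusted p of 0.0623 and 0.061 in the limma fits and of 0.0703 to 0.132 without tissue KO replicate 1, 2 or 3 or hepatocyte KO replicate 1 or 3. Single libraries also carried weight among the smaller changes of WT mice. The adjusted p of Tln1 was 0.0707 to 0.109 without tissue WT replicate 1 or 3 or hepatocyte WT replicate 1, 2 or 4, and that of Itga3 was 0.0506 to 0.0952 without tissue WT replicate 1, 3 or 4 or hepatocyte WT replicate 1 or 4.

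Of the 9 members lower in hepatocytes in both genotypes, Itgal, Itgb2, Itgb7, Parvg and Fermt3 are known from blood cells. In KO mice Itgam (log2 fold change -2.94, edgeR adjusted p = 0.0157) and Lims1 (-0.58, adjusted p = 0.00103) were called lower as well. Itgb2, the common beta subunit of leukocyte integrins, had 1.72, 1.85, 1.69 and 1.52 FPKM in WT liver and 0.169, 0.239, 0.441 and 0.228 in WT hepatocytes. Every hepatocyte library lay below every liver, and the log2 fold change was -2.58 (standard error 0.34, edgeR adjusted p = 5.16e-04). Its partner Itgal changed by -1.70 (adjusted p = 0.00444), Itgb7, a lymphocyte homing subunit, by -3.00 (adjusted p = 0.00354), gamma-parvin (Parvg), the parvin of blood cells, by -3.51 (adjusted p = 0.00528) and Fermt3 by -1.97 (adjusted p = 0.00822). Itga9 and the actin crosslinker filamin A (Flna) changed by -1.13 (adjusted p = 0.00828) and -0.90 (adjusted p = 0.0099). Markers of other cells mostly moved the same way in WT hepatocytes, where 15.6% of all genes were called lower. All 8 macrophage markers, 5 of 5 tested leukocyte markers, 6 of 9 mesenchymal markers and 3 of 8 endothelial markers were called lower. Of 6 biliary markers tested, 4 were called lower and 1 higher. The summed FPKM of the 7 leukocyte markers was 12 to 16.1 in WT liver and 0.687 to 4.14 in WT hepatocytes, and that of the 8 endothelial markers 68.8 to 82.1 and 23.4 to 52.1. In bulk RNA, fewer cells of a type and less RNA per cell cannot be told apart. Without tissue WT replicates 2 and 4 together Itga8 changed by -0.19 (adjusted p = 0.614), and its call was also lost in 13 of the 16 fits without a single library (adjusted p = 0.0535 to 0.166).

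**Figure D2:**
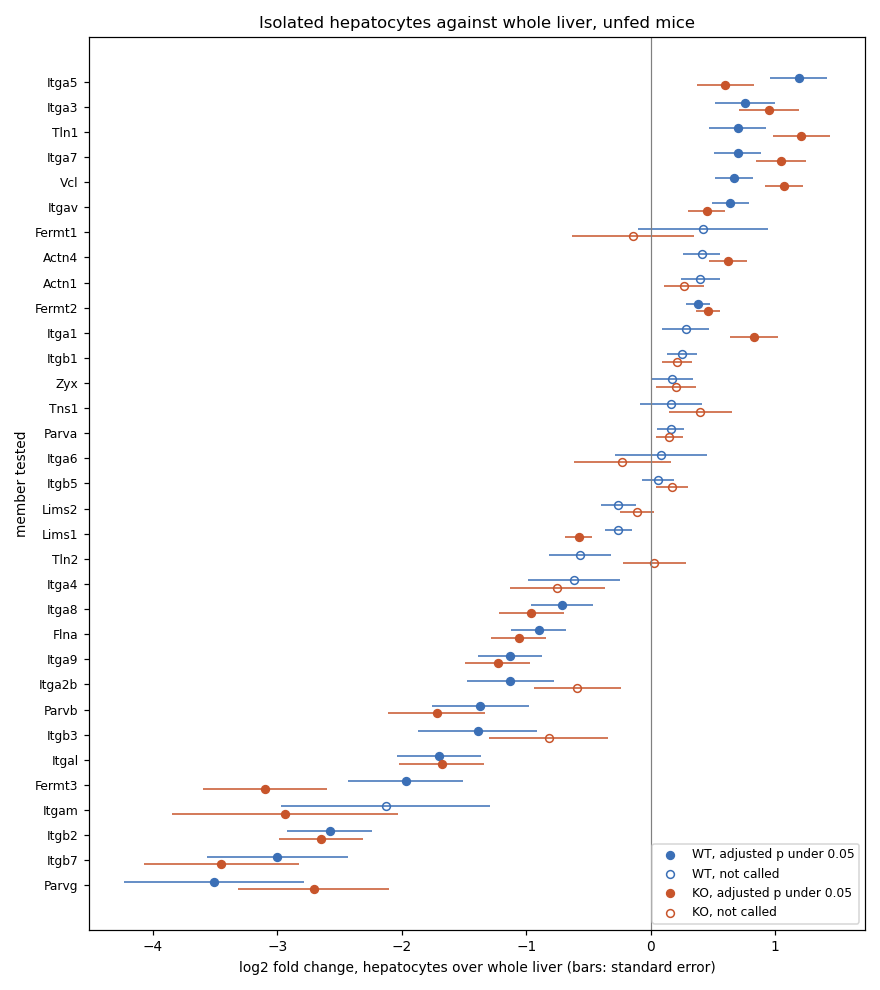
Log2 fold change of isolated hepatocytes over whole liver for the 33 members tested, in WT (blue) and KO (orange) mice, with bars of 1 standard error and filled points for an adjusted p under 0.05. Itga5 lies furthest right in WT at 1.19, and Parvg furthest left in WT at -3.51.

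DDC livers came from a separate table, so their levels stand beside those of unfed liver without a test. Itgb1 was 78.3 to 102 FPKM in Bred WT and 74.6 to 83.9 in Virus WT, beside 34 to 55.7 in unfed WT liver. Itgb2 was 11.9 to 18.2 and 17.8 to 21.9 FPKM, beside 1.52 to 1.85, and Itgax, the subunit that marks dendritic cells and some macrophages, was 3.22 to 5.11 and 3.24 to 3.87, beside 0.0165 to 0.234. Zyxin (Zyx) was 12.2 to 19.9 and 22.2 to 30.2 FPKM, beside 5.31 to 9. The summed leukocyte markers were 57.7 to 92.7 and 102 to 107 FPKM, beside 12 to 16.1 in unfed WT liver. Fermt2 went the other way, with 18.9 to 22.6 and 14.4 to 19 FPKM beside 41.6 to 45.8.

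Family make-up differed in the same direction for blood cell members. Fermt3 made up 22.6 ± 2.66% (SD, n = 3) of kindlin FPKM in Bred WT and 28.4 ± 1.22% in Virus WT, beside 2.3 ± 0.997% in unfed WT liver. Parvg made up 14.4 ± 5.84% and 20 ± 2.83% of parvins, beside 2.07 ± 0.984%. Itgb5 and Itgb1 made up 45.4 ± 2.67% and 40.6 ± 3.36% of the beta subunits in Virus WT, and 40.2 ± 6.08% and 49.1 ± 7.85% in Bred WT. Itgb6 had 0.137 to 0.295 FPKM in Bred WT and 0.306 to 0.568 in Virus WT, Itgad, a beta 2 partner of macrophages, 0.192 to 0.429 and 0.238 to 0.439, and the collagen receptor Itga2 0.197 to 0.421 and 0.4 to 0.803.

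**Figure D3:**
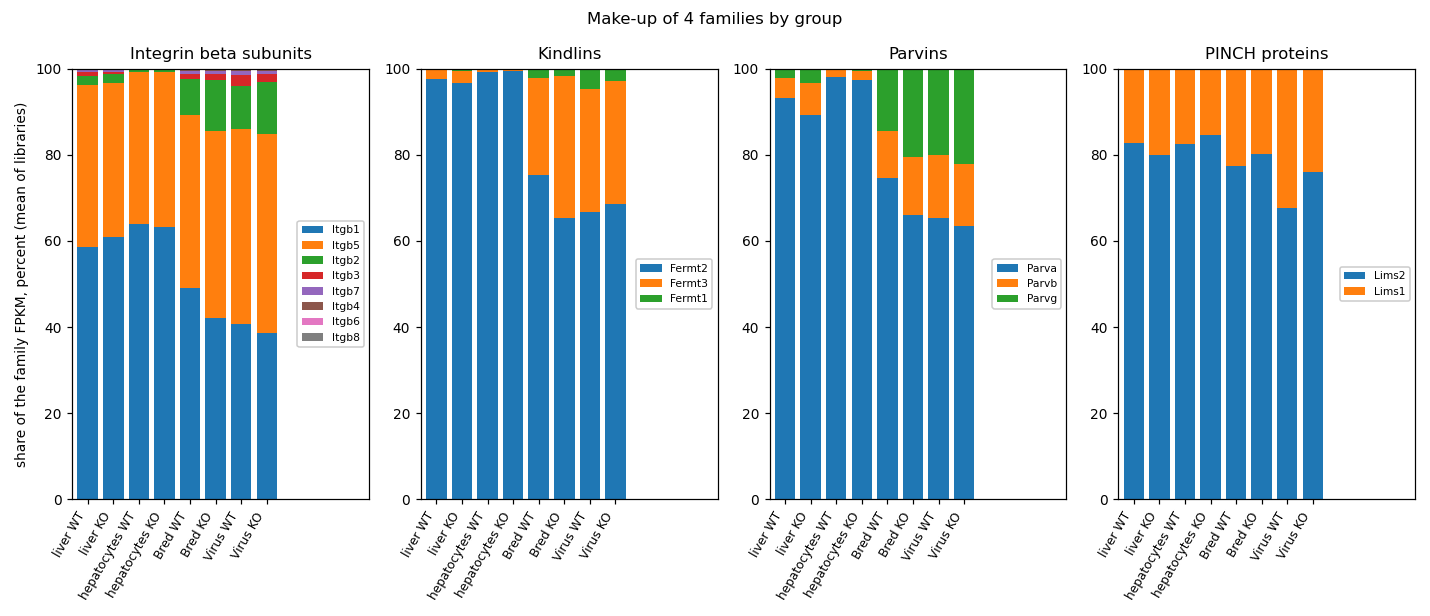
Stacked bars of the share of summed FPKM, in percent, that each gene takes of the integrin beta subunits, kindlins, parvins and PINCH proteins, as the mean of the 4 (unfed) or 3 (DDC) libraries of each of the 8 groups. Fermt3 takes 2.3% of the kindlins in unfed WT liver and 28.4% in Virus WT liver.

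On DDC, 41 members passed the count filter, all but Itga10 and Ilk. In Bred livers 5 of 41 (12.2%) were called, all higher in KO, beside 6.25% of all 13955 genes tested and 3.17% called higher. They were the laminin receptor subunit Itga3, Itga5, the platelet subunit Itga2b, Zyx and Flna. Same-numbered Bred WT and KO libraries deviated together, but the labels state no pairing and the check made here cannot settle it. With the replicate number as a block, 9 members were called, beside 12.4% of all genes and 6.28% called higher. The block added Itgb2 (log2 fold change 0.50, adjusted p = 0.0479), Itgam (0.68, adjusted p = 0.0315), Fermt3 (0.58, adjusted p = 0.039) and Itga9 (0.41, adjusted p = 0.0434). Fitted on the 6 Bred libraries alone without the block, no member was called, nor was any of all genes, with 2360 genes at an unadjusted p under 0.05. The log2 fold changes there were 1.21 for Itga3, 1.17 for Zyx and 0.78 for Flna, with adjusted p = 0.0615 to 0.0852. With the block, the fit of Bred libraries alone called 1269 genes and 6 members, the 5 named and Fermt3, while Itgb2, Itgam and Itga9 had an adjusted p of 0.055 to 0.0627.

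Itga3 (chr11:95044474-95076801, mm10) pairs with Itgb1 as a laminin receptor and is typical of bile duct and other epithelia. In unfed mice it was called higher in isolated hepatocytes than in whole liver (log2 fold change 0.76 in WT and 0.95 in KO). It had 4.09, 4.87 and 5.02 FPKM in Bred WT and 9.19, 13.1 and 12.5 in Bred KO. Every Bred KO library lay above every Bred WT library, with a log2 fold change of 1.20 (2.3-fold, standard error 0.20, edgeR adjusted p = 0.00847). In Virus mice it had 15, 10.4 and 15.8 FPKM in WT and 8.07, 10.4 and 7.72 in KO. There the WT libraries were higher, with a lowest WT value equal to the highest KO value at 3 digits, and the log2 fold change was -0.81 (standard error 0.20, adjusted p = 0.0472). It was the 1 member of 41 (2.44%) called in Virus livers, beside 2.66% of all genes and 1.25% called lower. This call was narrow, and the adjusted p was 0.0542 to 0.187 without any of Bred WT replicate 2 or 3, Bred KO replicate 3, Virus WT replicate 1 or 3 or Virus KO replicate 1, 2 or 3. The call was also lost with limma at pseudocounts of 1 and 0.1 (adjusted p = 0.084 and 0.0823). In the fit of Virus libraries alone with the replicate block the edgeR adjusted p was 0.0554.

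Zyx (chr6:42349828-42360146) encodes zyxin, a LIM protein that moves to adhesions and actin fibres under tension. It had 12.2, 19.9 and 17.4 FPKM in Bred WT and 35.7, 41.2 and 42.7 in Bred KO, with no overlap, and a log2 fold change of 1.16 (2.23-fold, standard error 0.18, edgeR adjusted p = 0.00771). In Virus mice it had 24.2, 22.2 and 30.2 FPKM in WT and 21.7, 23.1 and 27.6 in KO, which overlapped, with a log2 fold change of -0.24 (standard error 0.18).

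The genotype effect itself differed between the deletion methods for 2 of 41 members (4.88%), both higher in Bred, beside 3.21% of all genes and 2% called higher. For Itga3 the Bred effect minus the Virus effect was a log2 value of 2.02 (standard error 0.28, edgeR adjusted p = 0.0038). For Zyx it was 1.40 (standard error 0.26, adjusted p = 0.0153), and 1.33 (adjusted p = 0.0522) without Virus KO replicate 1. Part of both differences lay between the control groups. Itga3 was lower in Bred WT than in Virus WT (log2 difference -1.59, standard error 0.20, adjusted p = 6.05e-04), while the log2 difference of Bred KO minus Virus KO was 0.43 (standard error 0.20, adjusted p = 0.229). Zyx was lower in Bred WT than in Virus WT (-0.66, standard error 0.18, adjusted p = 0.0269) and higher in Bred KO than in Virus KO (0.74, standard error 0.18, adjusted p = 0.0478). Bred and Virus mice differ in the cells that lose FAK (hepatocytes and cholangiocytes against hepatocytes), in the vector, in the onset of deletion and in whatever separates the cohorts, which cannot be told apart.

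Of the 9 mesenchymal markers, the smooth muscle gene Tagln, picked after its values were seen, had its 4 group means in the same order as Itga3. Bred WT livers had 5.17, 3.86 and 4.38 FPKM and Bred KO livers 11.4, 12.6 and 9.23, while Virus WT livers had 22.7, 16.5 and 19.2 and Virus KO livers 6.28, 11.5 and 7.82. It was called higher in Bred KO (1.20, adjusted p = 0.015) and lower in Virus KO (-1.35, adjusted p = 0.0118). Lrat, the retinol-esterifying enzyme of stellate cells and the other mesenchymal marker called in Virus livers, was higher in Virus KO (0.93, adjusted p = 0.0336). Of the 9 markers, 7 had a positive log2 fold change in Virus livers, with a median of 0.27, so Tagln went against most of the list there. In Bred livers all 9 were positive, with a median of 0.87. The summed FPKM of all 9 mesenchymal markers was 119 to 183 in Bred WT livers and 245 to 337 in Bred KO livers, beside 142 to 183 (WT) and 184 to 239 (KO) in Virus mice, with no marker at 0 throughout any group. The 8 biliary markers summed to 32.3 to 35.3 FPKM in Bred WT livers and 22.8 to 82.4 in Bred KO livers, beside 40.6 to 68 (WT) and 45 to 64.2 (KO) in Virus mice. None of them was called in either method without the block, and with the replicate block Sox9, a transcription factor of bile duct cells, was called higher in Bred KO (0.71, adjusted p = 0.0252). The part of these cells in the Itga3 and Zyx values was not tested.

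**Figure D4:**
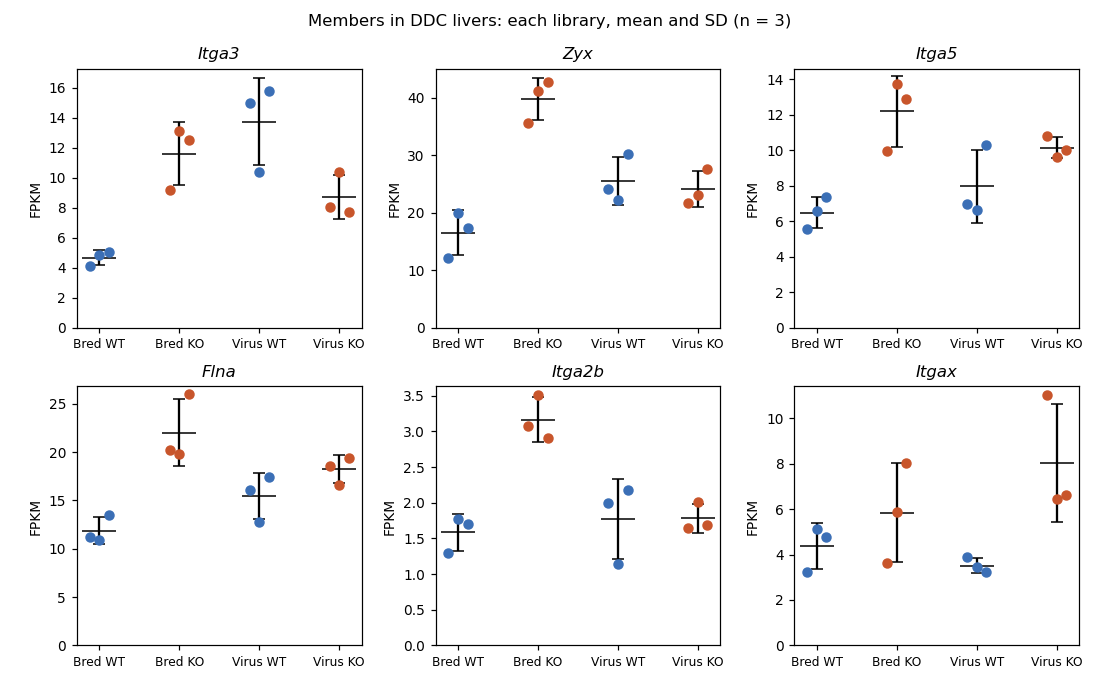
FPKM of 6 members in DDC livers, with a point for each library (WT blue, KO orange), a horizontal mark for the mean and bars of 1 SD (n = 3). Itga3 lies at 4.09 to 5.02 in Bred WT and 10.4 to 15.8 in Virus WT, and Itgax at 3.24 to 3.87 in Virus WT and 6.45 to 11 in Virus KO.

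The 250 bases upstream of the RefSeq start are shown for Itga3, Zyx, Itga5 and Flna (GRCm38.p6, the assembly of mm10). These are 4 of the 5 members called higher in Bred KO livers, and the window of Itga2b is not shown. Capitals mark the GC box GGGCGG, the AP-1 site TGANTCA and the TEAD site GGAATG, searched on both strands, and no position belongs to more than 1 of these motifs. Of all 32851 RefSeq promoter windows of that length 32.7% hold a GC box, 6.75% the AP-1 letters, 12.6% the TEAD letters and 1.47% a CArG box, which none of the 4 held. Sequences are in the direction of the gene, the first of the pair of RefSeq entries was used for Itga3, and the Flna window lies inside the longer gene model of the counts. The Itga3 window reaches into its gene model, which ends at chr11:95076801, and the last of its GC boxes lies in that stretch.
Itga3 (chr11:95076715-95076964, minus strand): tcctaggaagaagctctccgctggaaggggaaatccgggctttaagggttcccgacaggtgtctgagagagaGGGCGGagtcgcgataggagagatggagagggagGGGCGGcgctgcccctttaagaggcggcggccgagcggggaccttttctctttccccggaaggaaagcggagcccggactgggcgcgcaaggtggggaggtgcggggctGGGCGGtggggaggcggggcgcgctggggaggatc
Zyx (chr6:42349578-42349827, plus strand): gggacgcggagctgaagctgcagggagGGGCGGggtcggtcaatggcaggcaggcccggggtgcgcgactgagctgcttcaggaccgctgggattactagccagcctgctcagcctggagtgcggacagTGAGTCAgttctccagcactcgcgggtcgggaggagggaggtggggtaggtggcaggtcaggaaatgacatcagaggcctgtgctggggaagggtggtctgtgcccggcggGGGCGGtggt
Itga5 (chr15:103366792-103367041, minus strand): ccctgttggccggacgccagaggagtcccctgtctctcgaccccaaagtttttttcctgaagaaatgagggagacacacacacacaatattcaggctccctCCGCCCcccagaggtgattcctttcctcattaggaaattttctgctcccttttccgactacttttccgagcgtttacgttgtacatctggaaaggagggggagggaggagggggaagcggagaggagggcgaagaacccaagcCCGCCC
Flna (chrX:74246535-74246784, minus strand): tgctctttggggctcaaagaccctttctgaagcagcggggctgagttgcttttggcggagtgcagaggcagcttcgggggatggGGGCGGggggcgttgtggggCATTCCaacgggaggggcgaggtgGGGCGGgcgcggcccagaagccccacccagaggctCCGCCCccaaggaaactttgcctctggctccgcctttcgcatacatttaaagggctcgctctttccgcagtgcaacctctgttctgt

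All 4 held a GC box, with 3 in Itga3, 2 in Zyx, 2 in Itga5 and 3 in Flna. Zyx alone held the AP-1 letters and Flna alone the TEAD letters. Of the 32 members with a window in the RefSeq table, 16 held a GC box, 3 the AP-1 letters, 5 the TEAD letters and 2 a CArG box. The fifth member called in Bred livers, Itga2b, held none of the 4 motifs. A match is a run of letters and says nothing of binding in these livers.

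Itga5 (chr15:103344289-103366763) is the alpha subunit of the main fibronectin receptor. It had 5.56, 6.54 and 7.34 FPKM in Bred WT and 9.93, 13.7 and 12.9 in Bred KO, without overlap (log2 fold change 0.80, 1.74-fold, standard error 0.19, edgeR adjusted p = 0.0288). In Virus mice it had 6.95, 6.61 and 10.3 FPKM in WT and 10.8, 9.63 and 10 in KO, which overlapped through Virus WT replicate 3 (0.19, standard error 0.19, adjusted p = 0.63). Flna (chrX:74223461-74249820) had 11.2, 10.9 and 13.5 FPKM in Bred WT and 20.2, 19.8 and 26 in Bred KO, without overlap (0.77, 1.7-fold, standard error 0.14, adjusted p = 0.0113). In Virus mice it had 16.1, 12.8 and 17.4 FPKM in WT and 18.6, 16.6 and 19.4 in KO, and the groups overlapped (0.07, standard error 0.14, adjusted p = 0.821). Over both methods, a comparison that uses the same libraries as the separate ones, Itga5 (0.49, adjusted p = 0.0437) and Flna (0.42, adjusted p = 0.0284) were the 2 members called (4.88%), both higher in KO, beside 6.41% of all genes and 3.26% called higher. The adjusted p of Itga5 there was 0.0593 to 0.109 in the 9 fits without 1 library that lost the call, and that of Flna 0.0525 to 0.077 in 5 such fits. With the replicate block that comparison called 8 members and 1751 of all genes.

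Itga2b (chr11:102453297-102470122), with Itgb3 the fibrinogen receptor of platelets, had 1.29, 1.77 and 1.7 FPKM in Bred WT and 3.07, 3.51 and 2.9 in Bred KO. The groups were apart, with a log2 fold change of 0.88 (1.84-fold, standard error 0.24, edgeR adjusted p = 0.0451), and with the replicate block the adjusted p was 0.0415. In Virus mice it had 2, 1.14 and 2.18 FPKM in WT and 1.64, 2.01 and 1.69 in KO, which overlapped. The 6 other platelet markers summed to 2.93 to 3.84 FPKM in Bred WT livers and 5.59 to 6.31 in Bred KO livers. In Virus mice the sum was 5.17 to 10.1 (WT) and 5.29 to 5.92 (KO), and Gp6 was at 0 in every Bred WT and every Virus KO library. Only 2 of these markers passed the count filter, and they went opposite ways in Bred livers. Pf4 had a log2 fold change of 1.07 (edgeR adjusted p = 0.0532) and Ppbp of -1.30 (adjusted p = 0.286). The part of platelets in the Itga2b value was not tested.

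The Bred calls rested unevenly on single libraries. Without any of Bred WT replicate 1 or 2 or Bred KO replicate 2 or 3, Itga3, Zyx and Flna were called and Itga5 (adjusted p = 0.0516 to 0.1) and Itga2b (0.0552 to 0.148) were not. Itga2b also passed the threshold no longer without Bred WT replicate 3 (adjusted p = 0.0706), Virus WT replicate 1 (0.0603) or Virus KO replicate 1, 2 or 3 (0.0612 to 0.0667). Itga3, Zyx and Flna stayed called in Bred mice without any single library.

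Other genes of the adhesion pathway were counted in the same way, beside the 3.17% of all genes called higher in Bred KO, or 6.28% with the block. Of 33 integrin ligands tested, 5 rose in Bred KO and 0 fell (12 rose with the replicate block), with Col4a1, a basement membrane collagen, at a log2 fold change of 0.68 (edgeR adjusted p = 0.0186) and the fibrillar collagen Col3a1 at 1.08 (adjusted p = 0.0212). The ligands' median log2 fold change was 0.40, against -0.01 over all genes. Of 29 further adhesion adaptors tested 3 rose and 0 fell (6 rose with the block), with the zyxin relative Trip6 at 0.68 (adjusted p = 0.015) and the actin filament elongation factor Vasp at 0.67 (adjusted p = 0.0264). Of 19 FAK partners and substrates Git1 and paxillin (Pxn) rose and Ptk2 fell, and with the block Src rose too. In Virus livers, where 2.66% of all genes were called, 1 of the 33 ligands was called, the matricellular Thbs1 at -2.67 (adjusted p = 0.031), 1 of the 29 adaptors, Kank2 at 0.88 (adjusted p = 0.047), and of the FAK list Ptk2. Of the mesenchymal markers 5 of 9 rose in Bred KO (6 with the block), of the endothelial markers 1 of 8 (2 with the block), of the macrophage markers 0 of 8 (1 with the block), and the summed macrophage markers were 338 to 412 FPKM in Bred WT and 481 to 603 in Bred KO. Of 10 hepatocyte markers, Apob and Ttr were called lower in Bred KO, beside 430 of all 13955 genes. The log2 fold change was positive for 6 of the 10, with a median of 0.09. None of 6 lymphocyte, 6 leukocyte, 2 platelet and 4 red cell markers tested was called in Bred or in Virus livers. What these cell types contributed to the rise of the members was not tested.

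**Figure D5:**
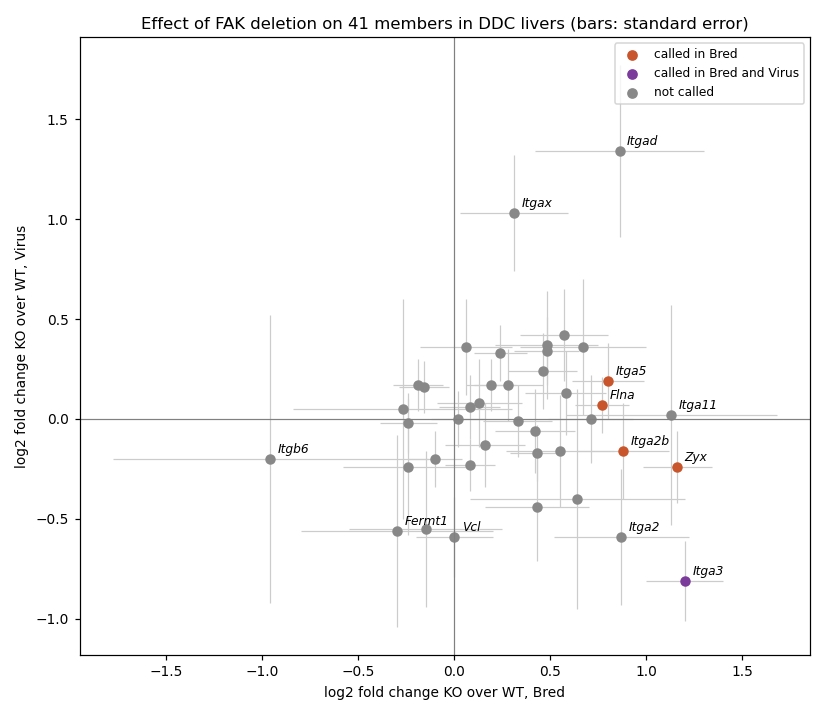
Log2 fold change of KO over WT for the 41 members tested in DDC livers, Bred on the horizontal and Virus on the vertical axis, with bars of 1 standard error. Itga3, at 1.20 and -0.81, is called in both, and the other 4 members called in Bred lie between -0.24 and 0.19 in Virus.

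Of the 41 members, 31 had a positive log2 fold change in Bred livers, with a median of 0.33 against -0.01 over all genes. In Virus livers 20 were positive, with a median of -0.00 against 0.01. With the length trend removed 29 were positive in Bred livers, with a median of 0.25 against -0.04 over all genes. In Virus livers that fit gave 16 positive and a median of -0.09 against -0.04. With limma at a pseudocount of 0.1 the Bred median was 0.38 against 0.11. By role, the Bred median was 0.57 over 17 alpha subunits, of which 3 rose, -0.04 over 8 beta subunits, of which 0 were called, and 0.31 over 16 adaptors, of which 2 rose. Itgb1 had 102, 78.3 and 86.3 FPKM in Bred WT against 100, 69.6 and 76.2 in Bred KO. Virus livers had 80.3, 83.9 and 74.6 (WT) against 87.5, 76.4 and 100 (KO). The groups overlapped in both methods, with log2 fold changes of -0.24 (standard error 0.15) and -0.02 (standard error 0.15). Tln1 had 14.9, 16.3 and 19.7 FPKM in Bred WT against 17.6, 22.9 and 28.9 in Bred KO, and Virus livers had 14.5, 15.1 and 17.6 (WT) against 19.7, 15.6 and 17.4 (KO), with overlap in both (0.33 and -0.01, standard error 0.18 each).

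A pair of alpha subunits that join Itgb2, Itgad and Itgax, had the highest Virus fold changes among members, and neither was called. Itgax had 3.87, 3.43 and 3.24 FPKM in Virus WT against 11, 6.45 and 6.6 in Virus KO, with no overlap, and a log2 fold change of 1.03 (standard error 0.29, edgeR adjusted p = 0.0761). It passed the threshold in DESeq2 (adjusted p = 0.015), without the count filter (adjusted p = 0.0279) and in the fit of the 6 Virus libraries alone (adjusted p = 0.0187). Itgad had 0.365, 0.238 and 0.439 FPKM in Virus WT against 1.26, 0.833 and 0.852 in Virus KO (1.34, standard error 0.43, adjusted p = 0.121). The 7 leukocyte markers summed to 102 to 107 FPKM in Virus WT and 117 to 130 in Virus KO, with Ly6g at 0 in all Virus KO libraries, and the 8 macrophage markers to 496 to 632 and 547 to 611. The other alpha partners of Itgb2 were not called in Virus livers either (Itgal, adjusted p = 0.781, and Itgam, adjusted p = 0.996).

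Control livers of the 2 methods differed as well. Between Bred WT and Virus WT 8 of 41 members (19.5%) were called, 7 lower and 1 higher in Bred WT, beside 16.4% of all genes (7.96% lower and 8.45% higher). Besides Itga3 and Zyx, the lower ones were Itgav, Itgb3, Itga9, Itga2 and Vcl. Itgav had 14, 11.2 and 14.4 FPKM in Bred WT and 22.2, 19.9 and 21.9 in Virus WT, without overlap (log2 fold change -0.73, standard error 0.13, edgeR adjusted p = 0.00305), and 13.9, 14.3 and 17.1 in Bred KO and 19.3, 19.7 and 22.2 in Virus KO. Its platelet and osteoclast partner Itgb3 had 1.61, 1.16 and 3.09 FPKM in Bred WT and 4.25, 5.39 and 4.9 in Virus WT, without overlap (-1.35, standard error 0.27, adjusted p = 0.00658), and 2.82, 2.67 and 3.08 in Bred KO and 3.16, 4.68 and 4.18 in Virus KO. Both subunits of this vitronectin receptor were thus lower in Bred WT.

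Itga9, a receptor subunit for tenascin and osteopontin, had 5.18, 4.83 and 5.79 FPKM in Bred WT, 7.15, 8.1 and 8.43 in Virus WT, 7.29, 6.28 and 9.6 in Bred KO and 7.5, 7.08 and 9.06 in Virus KO. The control groups did not overlap (log2 fold change -0.62, standard error 0.14, edgeR adjusted p = 0.0126) and the KO groups did. Itga2 had 0.262, 0.197 and 0.421 FPKM in Bred WT, 0.699, 0.4 and 0.803 in Virus WT, 0.537, 0.567 and 0.643 in Bred KO and 0.627, 0.346 and 0.428 in Virus KO. Its control groups overlapped slightly at these low levels (-1.14, standard error 0.35, adjusted p = 0.0434), and its adjusted p was 0.0519 to 0.154 without any of Bred WT replicate 1 or 2, Bred KO replicate 2 or 3, Virus WT replicate 1 or 3 or Virus KO replicate 3. Vcl had 14, 10.6 and 16.8 FPKM in Bred WT, 19.2, 22.6 and 23.2 in Virus WT, 11.5, 13.5 and 19.9 in Bred KO and 16.5, 17.1 and 14.8 in Virus KO. Its control groups were apart (-0.69, standard error 0.20, adjusted p = 0.0307), and the adjusted p was 0.0541 to 0.0949 without Bred WT replicate 1 or 2 or any Virus WT library.

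Parva was the member higher in Bred WT, with 21, 18 and 22.2 FPKM against 14.4, 16.1 and 13.5 in Virus WT (log2 fold change 0.44, standard error 0.13, edgeR adjusted p = 0.0344), and 18.8, 17.2 and 22.6 in Bred KO and 19.7, 16.6 and 19.2 in Virus KO. The control groups did not overlap, and the adjusted p was 0.0507 to 0.107 without Bred WT replicate 1 or 3, Virus WT replicate 1 or 3 or Virus KO replicate 3. The Parva call was also lost with the replicate block (0.43, adjusted p = 0.0517), with the length trend removed (0.30, adjusted p = 0.0977) and with both (0.30, adjusted p = 0.131). For Zyx in the same comparison it was 0.0564 to 0.113 without Bred WT replicate 1 or 3 or Virus WT replicate 1 or 3. Between Bred KO and Virus KO only Zyx was called, 1 of 41 members (2.44%), beside 3.02% of all genes and 1.27% called higher, and its adjusted p was 0.0569 to 0.175 without any of Bred WT replicate 3, Bred KO replicate 2 or 3, Virus WT replicate 1 or 2 or Virus KO replicate 1, 2 or 3. Bred WT and Virus WT libraries also differed in the summed macrophage markers (338 to 412 against 496 to 632 FPKM), the leukocyte markers (57.7 to 92.7 against 102 to 107) and in the correlation with gene length (0.03 to 0.14 against -0.25 to -0.18). With the length trend removed 8 members were again called, Parva no longer and Flna in its place, and the members' median was -0.28 against -0.21 before. The part of the marker differences was not tested.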

How the data were processed

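The authors isolated RNA from whole liver or Percoll-purified hepatocytes, removed ribosomal RNA, made directional libraries, aligned reads to mm10 with STAR and, by the submitters' processing notes, used HTSeq 0.6.1. The strand setting of the counting is not given in the sources used here. The deposited tables hold whole-number counts for each gene and library beside the FPKM that the authors computed.

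From the counts, each experiment was fitted as 1 model of its 4 groups (edgeR 4.0.16 quasi-likelihood F test, R 4.3.3, TMM scaling, filterByExpr with minimum count 10 and minimum total 15), over 12507 unfed and 13955 DDC genes, or 11857 for the pooled comparison, with Benjamini-Hochberg adjustment over all genes tested and calls at an adjusted p under 0.05. FPKM served for levels, shares and limma 3.58.1. Tests were tried on simulated data. Results were recomputed with DESeq2 1.42.0, with its size factors in edgeR, without the filter, with limma on log2(FPKM + 1) and log2(FPKM + 0.1), with removal of the gene length trend (spline with 5 degrees of freedom), in fits of the compared groups alone, with the replicate number as a block, and without each library and without tissue WT replicates 2 and 4 together. The fits of the compared groups alone with the block were added after seeing the data.

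Replicate numbers were checked for pairing. Same-numbered Bred WT and KO libraries correlated at 0.268 to 0.32 after group means were removed, and other Bred pairs at -0.219 to -0.072. Removal of the group means ties these ranges to each other. The check therefore cannot settle whether the Bred numbers pair libraries. The labels state no pairing, and same-numbered tissue, hepatocyte and Virus libraries did not all deviate together.

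Members and gene lists were chosen with earlier results of these data known. Every library value is given for members called in a genotype comparison or between Bred and Virus, and for Itgb1 and Tln1, with a range for Ilk and for Itga2 in unfed libraries. Of other lists up to 2 genes with the smallest p in Bred and in Virus are named. Other genes were named after their values were seen. Promoter windows are RefSeq's (GRCm38.p6) and exon overlaps GENCODE M21's, both mm10 coordinates.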

Additional observations from a re-analysis of the deposited data

Results flagged for a closer look

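The effect of FAK loss differed between the deletion methods for 2 members by a test of the difference itself. For Itga3 the Bred effect exceeded the Virus effect by 2.02 on the log2 scale, and for Zyx by 1.40.

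In unfed groups of 4 libraries, 132 sets of FPKM values (33 members in 4 groups) were searched for a library far from the other 3, and 11 were found. Chance alone marks about 1 in 20 such sets. Hepatocyte KO replicate 1 was the highest of its group for Itgb2 (0.488, the others 0.146 to 0.187), Parvg (0.304, the others 0.0246 to 0.0618) and Lims2 (37, the others 24.9 to 26.5). Hepatocyte WT replicate 2 was the highest for Fermt3 (0.527, the others 0.129 to 0.19) and Flna (2.59, the others 1.59 to 1.67). Hepatocyte WT replicate 3 was the lowest for Tln1 (12.4, the others 15.9 to 16.4), and hepatocyte KO replicate 3 the highest for Parva (23, the others 20.1 to 20.2). In whole liver, WT replicate 1 was the lowest for Itgb3 (0.341, the others 0.663 to 0.72), WT replicate 3 the highest for Parvg (0.803, the others 0.299 to 0.371), WT replicate 4 the highest for Lims2 (34.8, the others 25.4 to 26.1), and KO replicate 2 the lowest for Itgal (1.05, the others 1.3 to 1.34).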

How the results depend on the processing

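Of 75 fold changes of members recomputed, 39 kept their call and sign under every alternative run, and 2 changed sign, both uncalled. Itga2b in Virus livers (-0.16) was 0.02 and 0.05 with limma at pseudocounts of 1 and 0.1 and -0.39 to 0.01 without 1 library. Flna there (0.07) was -0.04 with the length trend removed, -0.03 with the replicate block as well, and -0.04 to 0.16 without 1 library. The number of members called in Bred livers, 5, was 9 with the replicate block, 0 in the fit of Bred libraries alone and 3 to 7 without 1 library. In Virus livers, 1 became 2 with DESeq2 or no filter, 3 with the block, 0 with limma at a pseudocount of 1, 4 with the length trend removed and the block, 4 in Virus libraries alone, 3 there with the block, and 0 to 2 without 1 library. With limma at a pseudocount of 0.1 Itgax was called there (adjusted p = 0.048) and Itga3 was not (adjusted p = 0.0823). Over both methods, 2 became 7 with DESeq2, 6 without the filter, 8 with the block, 11 and 9 with limma, 1 with the length trend removed, 8 with the block added, and 0 to 6 without 1 library. For the difference between methods, 2 became 4 with the length trend removed and the block, and 1 to 3 without 1 library. Between Bred WT and Virus WT, 8 became 4 to 8 without 1 library. Between Bred KO and Virus KO, 1 became 3 with DESeq2, 0 with limma at either pseudocount, 2 with the length trend removed and the block, and 0 to 3 without 1 library. In unfed liver 0 became 0 to 3 without 1 library. Hepatocytes against liver gave 18 (12 to 19 without 1 library) in WT and 20 (18 to 21) in KO. The cause of these changes was not tested. On FPKM, limma gave a median of all genes in Virus livers of 0.11 and 0.16. Over all genes, Bred calls went from 872 to 1735 with the block. Members with few counts, such as Itga2, Itgad and Itgb6, are limited by depth.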
